A study of Mus musculus with 34 samples.

Results

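The genes described here encode the matrix metalloproteases (Mmp), the related Adamts proteases, the Adamts-like proteins (Adamtsl) and the tissue inhibitors of metalloproteases (Timp), as measured in the cornea of the mouse. They were taken as every probe set that the array's annotation pairs with exactly 1 symbol beginning Mmp, Adamts or Timp followed by a digit, or Adamtsl. That gave 74 probe sets of 49 genes, out of 19938 genes with such a probe set. There were 22 Mmp, 18 Adamts, 5 Adamtsl and 4 Timp genes. A gene with several probe sets, which was the case for 4 of the 49, was represented by the one with the highest mean. Mmp15 and Adamts2 had no probe set with a single symbol and were not analysed here.

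RNA came from wild-type CB6 mice and was hybridised to Affymetrix gene arrays, with no allele, treatment or agent that differed between groups. Whole corneas, cut from the globe, were sampled at 12 ages: embryonic days E14.5, E15.5 and E17.5, postnatal days P3, P7, P14 and P28, and 2 months, with 3 arrays each, and 6 months, 1 year, 18 months and 2 years, with 2 arrays each. One further array held epithelium of P28 freed with dispase, and one held stroma of P7 cut by laser from tissue sections, so that the series had 34 arrays, 32 of them of whole cornea. Nothing in the labels tells if the arrays of an age stem from different animals. The p-values therefore cover only the spread among these samples, which may be technical.

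The cornea is a clear sheet of collagen fibrils laid down by keratocytes, covered outside by a stratified epithelium and inside by a single layer of endothelial cells. Mmps are zinc proteases that cut collagens, laminins and other matrix proteins. Adamts proteases include enzymes that cut large proteoglycans and enzymes that trim the ends of procollagens, while Adamtsl proteins lack a protease domain. Timps bind and block the active site of these proteases, and Timp3, which is held in the matrix, also blocks several Adamts enzymes. In the cornea this system is best known for its part in shaping the stroma, in wound repair and in ulceration.

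Bases before the transcription start were available for 34 of the 49 genes in a RefSeq table of the build GRCm38.p6. The genes without an entry were Mmp2, Mmp9, Mmp16, Mmp17, Mmp19, Adamts4, Adamts5, Adamts6, Adamts7, Adamts8, Adamts10, Adamts15, Adamts16, Adamts19 and Adamtsl1. Short motifs were searched on both strands of the 250 bases before each start: TGANTCA, the AP-1 motif, which reads the same on both strands, TATAAA, the TATA box, and GGGCGG, the GC box. The AP-1 letters stood before 8 genes (6.75% of all 32851 windows held them), the TATA letters before 10 (12.4%) and the GC box before 18 (32.7%). All 8 genes with the AP-1 letters lay in one group on chromosome 9 that holds 10 Mmp genes, namely Mmp13, Mmp12, Mmp1b, Mmp3, Mmp1a, Mmp10, Mmp8, Mmp27, Mmp20 and Mmp7, with 0 other protein-coding genes between them. That group also held 7 of the 10 genes with the TATA letters and 0 of the 18 with the GC box. A match to these letters describes the sequence and is not evidence that a factor binds there.

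The 100 bases before the start are shown for 5 genes of the chromosome 9 group, with the AP-1 letters in capitals, since 1 of the 4 tested genes of that group changed with age, and for 3 genes outside it that changed, Mmp14, Timp2 and Adamts1, with the GC box in capitals. All are written 5′ to 3′ on the strand of the gene. The stretches are chr9:7272414-7272513, plus strand, for Mmp13, chr9:7445722-7445821, plus strand, for Mmp3, chr9:7502242-7502341, plus strand, for Mmp10, chr9:7347274-7347373, plus strand, for Mmp12, and chr9:7691990-7692089, plus strand, for Mmp7. Those of the second set are chr14:54431498-54431597, plus strand, for Mmp14, chr11:118355412-118355511, minus strand, for Timp2, and chr16:85803114-85803213, minus strand, for Adamts1.
Mmp13: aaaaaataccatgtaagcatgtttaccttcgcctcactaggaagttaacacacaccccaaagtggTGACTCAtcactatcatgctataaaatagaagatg
Mmp3: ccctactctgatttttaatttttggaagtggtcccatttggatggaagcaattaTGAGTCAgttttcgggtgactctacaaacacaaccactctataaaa
Mmp10: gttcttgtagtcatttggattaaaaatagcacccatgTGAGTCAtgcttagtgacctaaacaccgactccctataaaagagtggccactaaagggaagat
Mmp12: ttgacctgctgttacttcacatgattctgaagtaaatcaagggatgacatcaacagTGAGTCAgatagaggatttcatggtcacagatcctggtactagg
Mmp7: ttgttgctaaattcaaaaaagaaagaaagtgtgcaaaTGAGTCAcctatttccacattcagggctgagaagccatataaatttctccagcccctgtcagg
Mmp14: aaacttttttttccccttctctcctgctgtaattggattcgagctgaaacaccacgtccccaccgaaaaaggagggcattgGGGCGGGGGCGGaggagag
Timp2: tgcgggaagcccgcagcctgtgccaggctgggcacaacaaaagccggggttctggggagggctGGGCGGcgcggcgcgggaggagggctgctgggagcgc
Adamts1: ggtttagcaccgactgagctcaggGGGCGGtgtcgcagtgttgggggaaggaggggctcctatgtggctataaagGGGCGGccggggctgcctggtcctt
In these stretches the AP-1 letters begin between 35 bases (Mmp13) and 63 bases (Mmp10 and Mmp7) before the start. The GC box occurs 2 times in the stretches of Mmp14 and of Adamts1 and 1 time in that of Timp2.

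Intensities are given as deposited, on a linear scale, and differences are on the log2(intensity + 16) scale, which understates the change of dim genes. A gene entered the tests if its probe set exceeded the median of the array's probe sets with 1 symbol on 2 or more arrays of whole cornea. By this rule 31 of the 49 genes were tested (12 Mmp, 12 Adamts, 3 Adamtsl and 4 Timp) and 18 were not, so the counts below are not counts over all 49. The median over probe sets with 1 symbol, meant by the array's median for genes of the family, lay between 225.4 and 264.9 on whole cornea. It was 341.6 on the epithelium array and 357 on the stroma array. The median over all probe sets, used for the cell type lists below, lay between 188.2 and 240.6 on whole cornea. On the 2 layer arrays it was 318 and 321. The layer arrays also had a higher floor, and they entered no test. For the 28 pairs of arrays that share an age, r across genes, which are not independent replicates, was 0.879 to 0.985. The arrays also split between P14 and P28: 8 probe sets without a name never read below 1501 on the 18 earlier arrays and never above 12.8 on the 14 later ones, so age and this split cannot be told apart at that step. Lens genes were high on the stroma array, on 2 of the E14.5 arrays (replicates 2 and 3) and on 1 array each of P14, P28, 6 months (replicate 2 of each) and 2 months (replicate 1). Skeletal muscle genes were high on the stroma array and on replicates 1 and 3 of E17.5 (the muscle-rich arrays below). Retina genes were highest on replicate 1 of 6 months (the retina-rich array below), with a sum of 27751 against 864 to 1022 at E17.5. Their sum also reached 9911 at 2 months, 6013 at P14, 5961 on the other 6 months array, and 5356 and 6527 at 2 years. These arrays stayed in the fit without the muscle-rich and retina-rich arrays. Replicate 1 of E15.5 also stood apart, with a muscle sum of 20259 against 2318 and 2834 on the other E15.5 arrays and 16204 on the stroma array. It is in every fit unless its removal is stated. The muscle sums of the E14.5 arrays were 3554, 9542 and 13896 in ascending order, and none of these arrays was left out as muscle-rich.

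Over the 12 ages 17 of the 31 genes tested changed, at an adjusted p under 0.05 and with at least 1 log2 unit between the highest and the lowest age mean (limma moderated F-test, Benjamini-Hochberg over 12998 genes). That was 54.8% of the family, against 40.6% of all genes tested. By role, the genes that changed were the gelatinase Mmp2, which cuts denatured collagen and basement membrane collagen, the stromelysin Mmp3, the membrane-bound Mmp14, which activates pro-Mmp2, and Mmp16, the secreted Mmp28 and the transmembrane Mmp23. Among Adamts genes they were the proteoglycan-cleaving Adamts1 and Adamts5, the procollagen-trimming Adamts3, and Adamts6, Adamts10, Adamts12 and Adamts18. Adamtsl1 changed among 3 Adamtsl genes tested, and Timp1, Timp2 and Timp3 changed among the 4 inhibitors. Their age means spanned between 1.06 (Mmp28) and 5.47 log2 units (Mmp16), with a median of 2.13. The 14 tested genes that did not pass spanned 0.33 (Adamts17) to 0.93 (Mmp11), and 5 of them had an adjusted p under 0.05 with a span under 1. The highest age mean of the 17 fell at E17.5 for 5, at P7 for 4 and at E15.5 for 3, and the lowest at 18 months for 7.

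**Figure D1:**
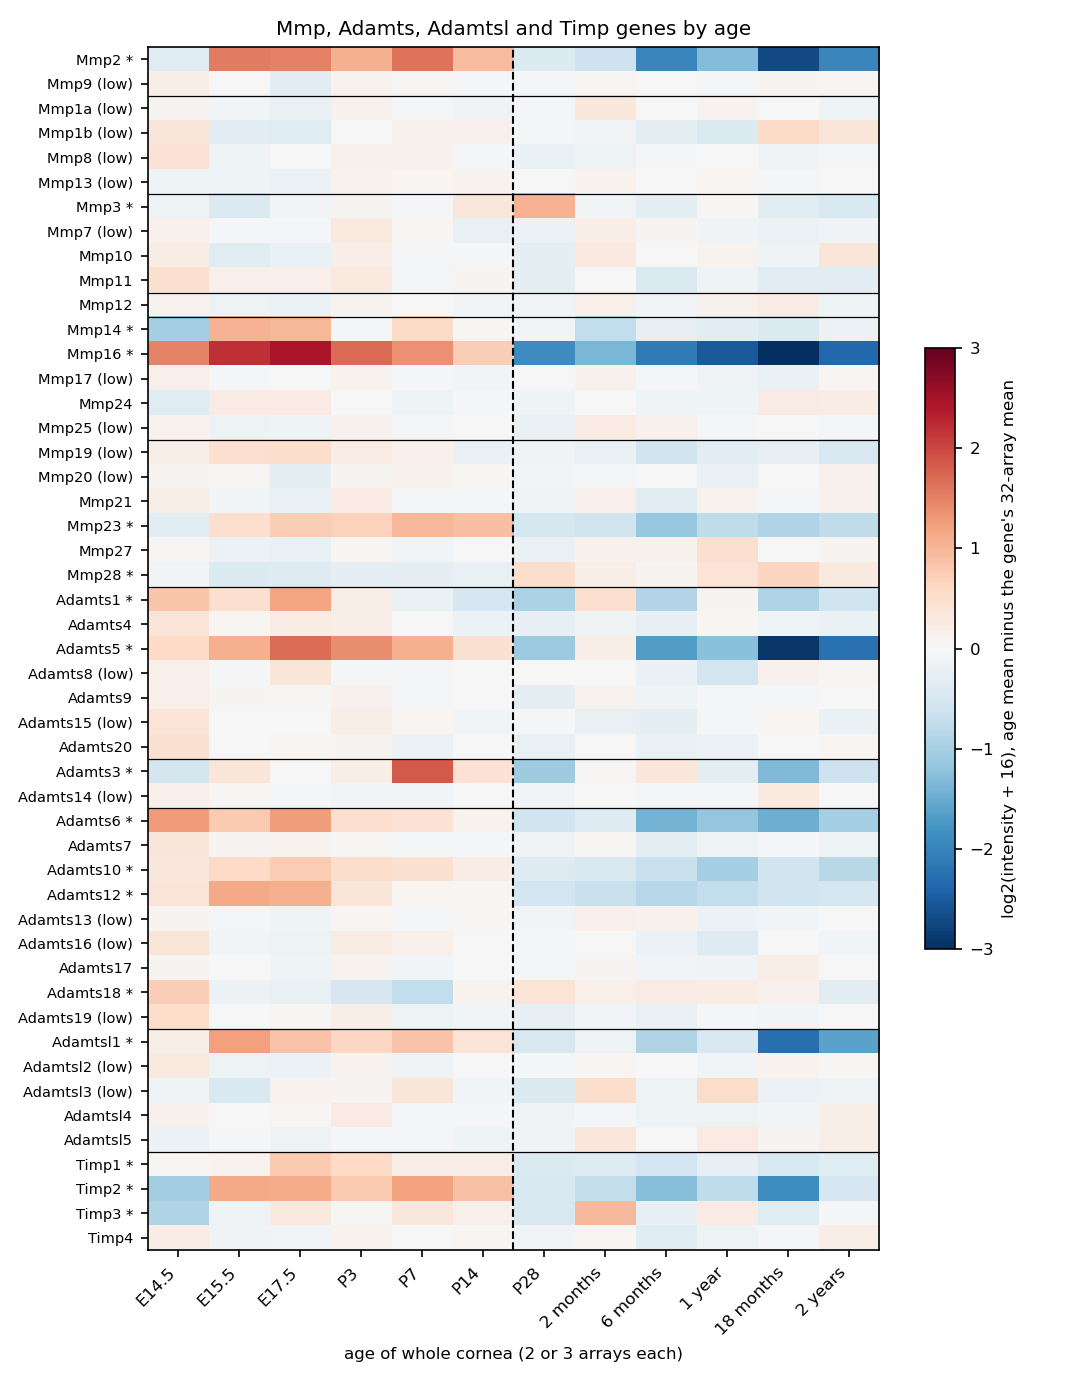
Each row is 1 of the 49 genes, grouped by role between the black lines, and each column an age of whole cornea. The colour gives the age mean of log2(intensity + 16) minus that gene's mean over the 32 arrays, an asterisk marks the 17 genes that changed over the 12 ages, "low" marks the 18 genes not tested, and the dashed line marks the split of the arrays between P14 and P28. Mmp16 and Adamts5 stand out by high means from E14.5 to P14, and Mmp2 and Timp2 from E15.5 to P14, with lower means after it, while the rows of the collagenases and most other genes on chromosome 9 stay pale.

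The 18 genes that were not tested exceeded the array's median intensity on at most 1 of the 32 arrays. None of the 4 collagenase genes, Mmp1a, Mmp1b, Mmp8 and Mmp13, entered the tests. Mmp13, a collagenase of cartilage and of healing wounds, lay between 66 and 125 on the 32 arrays, with age means that differed by at most 0.29 log2 units. The gelatinase Mmp9, known from leukocytes and the healing corneal epithelium, lay between 70.7 and 194, with a median of 140.2. Of the 10 genes of the chromosome 9 group, 4 were tested and 1 changed over the 12 ages, Mmp3. Outside that group 27 genes were tested and 16 changed. When all genes were tested without the filter, Mmp19 (span 1.14, adjusted p 0.00048 by limma) and Adamtsl3, a secreted Adamts-like glycoprotein (span 1.00, adjusted p 0.0049), passed as well.

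Within each side of the split the test was repeated over 6 ages. From E14.5 to P14, 11 genes of the family changed (19.6% of all genes did): Mmp2, Mmp14, Mmp16, Mmp23, Adamts1, Adamts3, Adamts6, Adamts12, Adamts18, Timp2 and Timp3. From P28 to 2 years 8 changed (6.77% of all genes): Mmp2, Mmp3, Mmp16, Adamts1, Adamts5, Adamtsl1, Timp2 and Timp3. Mmp2, Mmp16, Adamts1, Timp2 and Timp3 passed on both sides. Without the lens-rich arrays, Mmp2, Mmp23, Adamts6 and Timp3 no longer passed over E14.5 to P14. Mmp3, Mmp16 and Adamts1 no longer passed over P28 to 2 years, where Adamts3 was gained. In that fit Timp2 and Adamts3 passed on both sides. Timp1, an inhibitor induced in many injured tissues, Mmp28, an Mmp of epithelia, and Adamts10, a protease tied to fibrillin, passed over the 12 ages and on neither side alone.

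**Figure D2:**
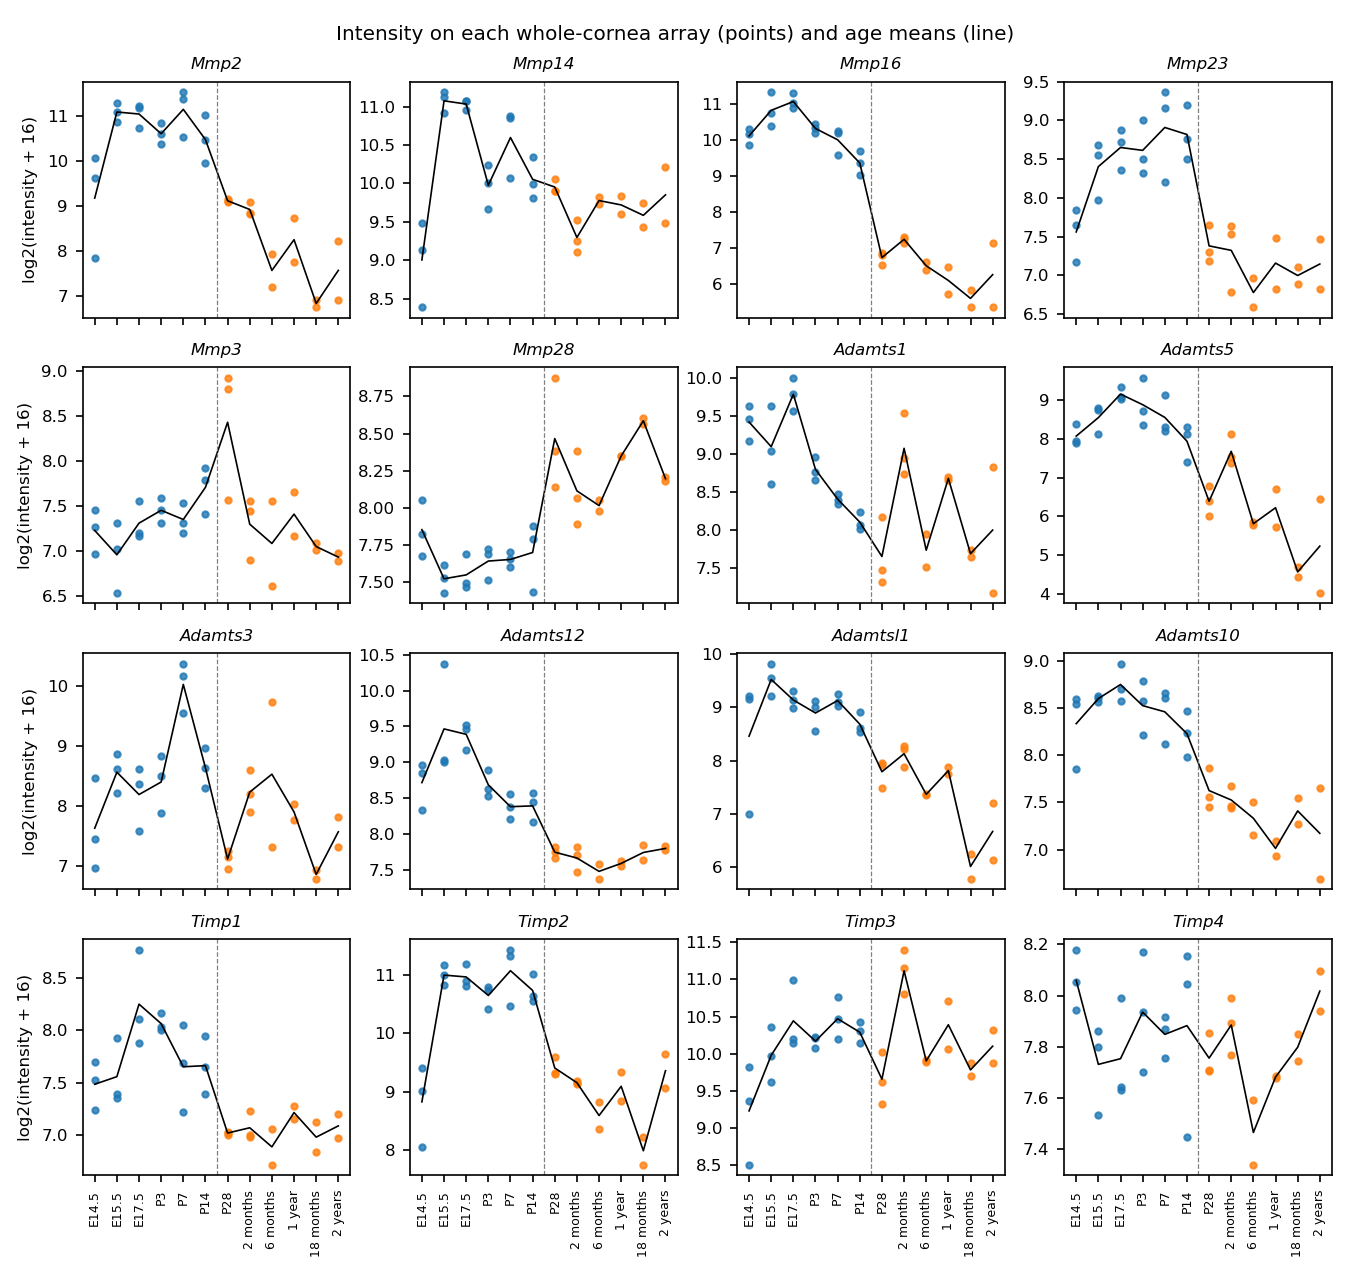
Each panel plots log2(intensity + 16) of 1 gene on every whole-cornea array against age, with arrays of E14.5 to P14 in blue, arrays of P28 to 2 years in orange, a line through the age means and a dashed line at the split of the arrays. Mmp2 and Timp2 rise at E15.5 and are low from P28, Mmp28 reads higher from P28 on than at E15.5 to P14, Timp3 and Adamts1 peak at 2 months among the later ages, and Timp4, which did not pass, varies over less than 1 log2 unit.

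Between E14.5 and E15.5, 4 of the 31 genes rose and 0 fell (12.9% of the family), when 7.35% of all genes rose and 3.1% fell. Mmp14 and Mmp2 rose together with the inhibitor Timp2, the protein with which membrane-bound Mmp14 forms the complex that activates pro-Mmp2. The fourth was Adamtsl1. The median difference of the 31 genes was -0.08, against 0.01 for all genes tested.

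Timp2 read 661, 503 and 249.6 at E14.5 and 2277, 1802 and 2034 at E15.5, a log2 difference of 2.17 (SE 0.27, adjusted p 1.1e-06 by limma). Mmp14 read 699, 546 and 319.8 against 2212, 1919 and 2315, a difference of 2.07 (SE 0.24, adjusted p 3.5e-07 by limma). Mmp2 read 1052, 777 and 211 against 2184, 1866 and 2506, a difference of 1.92 (SE 0.41, adjusted p 0.00077 by limma). For these 3 genes every E15.5 array lay above every E14.5 array, and E14.5 replicate 3 was the lowest of the 6. Adamtsl1 read 575, 555 and 113 against 572, 732 and 880.0, a difference of 1.06 (SE 0.36, adjusted p 0.025 by limma), and here the arrays overlapped. Without E14.5 replicate 3 that difference was 0.34 and did not pass, and it did not pass without E15.5 replicate 2 (1.05, adjusted p 0.058) or E15.5 replicate 3 (0.92, adjusted p 0.1) either.

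The 2 arrays of E14.5 rich in lens genes made up most of that age. Without the lens-rich arrays, which left E14.5 with replicate 1, assumed to vary like the other ages, Timp2 rose by 1.59 (adjusted p 0.0026) and Mmp14 by 1.59 (adjusted p 0.0015). Mmp2 then differed by 1.03 (adjusted p 0.13) and Adamtsl1 by 0.31 (adjusted p 0.54), and neither passed (limma). Other tissues moved with this step. The summed intensity of 7 keratocyte genes was 2750 to 9981 at E14.5 and 38956 to 45369.7 at E15.5. That of 3 measured blood genes of 6 listed was 22227 to 32297 at E14.5 and 280.2 to 577 at E15.5. The 6 corneal epithelial genes summed to 1190.0 to 5658 at E14.5 and 20098 to 29817 at E15.5, and 4 genes of conjunctiva and limbus to 537 to 846 and 2604 to 5360. Their part in the difference was not tested, and in whole tissue fewer cells of a type and less RNA per cell cannot be told apart.

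At E17.5 against E14.5, a comparison that reuses the 3 arrays of E14.5, the 3 genes were higher, and 5 of 31 genes passed (5.87% of all genes rose). Timp2 differed by 2.14, Mmp14 by 2.03 and Mmp2 by 1.88. Timp3 with 1.21 (adjusted p 0.0021 by limma) and Mmp23, a transmembrane Mmp that is released by cleavage, with 1.09 (adjusted p 0.0081) joined them, and Adamtsl1 did not pass. Timp3 read 643, 888 and 349 at E14.5 and 1160, 1111 and 2017 at E17.5, with no overlap. Without the lens-rich arrays, a fit chosen for this comparison after seeing the data, Timp2 differed by 1.56, Mmp14 by 1.55 and Timp3 by 1.08 (adjusted p 0.0055, 0.0034 and 0.048 by limma), while Mmp2 with 0.99 and Mmp23 with 0.80 did not pass (adjusted p 0.18 and 0.26). Without the muscle-rich and retina-rich arrays, which left E17.5 with replicate 2, the difference of Timp3 was 0.91 and did not pass (adjusted p 0.093).

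From E15.5 to P14, while the eyelids of the mouse are closed for most of the time, 3 genes fell and 0 rose (1.98% of all genes fell and 3.21% rose). Mmp16, a membrane-bound Mmp, read 2563, 1331 and 1719 at E15.5 and 820.0, 504 and 647 at P14, a difference of -1.46 (SE 0.31, adjusted p 0.0015 by limma). Its means stepped down at each sampled age from E17.5 to P14, through 1288, 1372 and 1150 at P3 and 1165, 751 and 1199 at P7, though the steps between neighbouring ages did not pass on their own. Adamts12, an Adamts protease that binds and cuts cartilage oligomeric matrix protein, read 506, 496 and 1306 against 364, 333 and 272, a difference of -1.07 (SE 0.24, adjusted p 0.0022 by limma). Mmp14 read 2212, 1919 and 2315 against 1288, 885 and 1006, a difference of -1.02 (SE 0.24, adjusted p 0.0033 by limma). In all 3 genes the arrays of both ages were apart. For Adamts12 the size rested on E15.5 replicate 3: without it the difference was -0.62, and without P14 replicate 3 it was -0.96, both under the threshold of 1. Mmp14 fell under that threshold without any of E15.5 replicates 1 and 3 and P14 replicates 2 and 3, and without the lens-rich arrays, where the smallest difference was -0.90.

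Among the steps within this span, Mmp14 fell from E17.5 (1972, 2137 and 2133) to P3 (1197, 1016 and 799) by 1.06 on the log2 scale (SE 0.24, adjusted p 0.0062 by limma), when 1.11% of all genes fell. The difference was -0.91 without P3 replicate 3, and without the muscle-rich and retina-rich arrays it was as large as with all arrays, with an SE of 0.35 and an adjusted p of 0.057. Adamts3, which removes the amino-terminal propeptide of procollagens, rose from 218, 343 and 437 at P3 to 1298, 728 and 1129 at P7, a difference of 1.63 (SE 0.43, adjusted p 0.016 by limma), when 1.35% of all genes rose. Every P7 array of Adamts3 lay above every other array of E14.5 to P14. This was 1 of 16 probe sets of the gene: 8 of them had their highest age mean at P7, 11 read higher at P7 than at P3, and 2 did so by at least 1 log2 unit. With the mean of the 16 the difference was 0.32 (adjusted p 0.22), and without P3 replicate 1 or P7 replicate 1 it was 1.36 and 1.46, each with an adjusted p of 0.073. From E15.5 to E17.5 and from P7 to P14, 0 of 31 genes passed by limma (0.569% and 0% of all genes did), with 2 and 4 at an unadjusted p under 0.05.

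Between P14 and P28, the step that runs from about eyelid opening past weaning, 6 of the 31 genes fell and 0 rose (19.4% of the family fell), when 3.5% of all genes fell and 4.15% rose. They were Mmp16, Mmp2 and Mmp23 among the Mmps, the proteoglycan-cleaving Adamts5, the procollagen-trimming Adamts3, and the inhibitor Timp2. The median difference of the 31 genes was -0.25, against 0.11 for all genes tested. Because the split of the arrays falls here, age and the split cannot be told apart for any of the 6.

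Mmp16 changed most, from 820.0, 504 and 647 at P14 to 97, 76.8 and 101 at P28, a difference of -2.63 (SE 0.31, adjusted p 1.3e-06 by limma). Mmp23 read 569.9, 419 and 346 against 185, 142 and 129 (-1.44, SE 0.30, adjusted p 0.00074 by limma). Mmp2 read 2069, 1394 and 971 against 551, 524 and 539 (-1.36, SE 0.41, adjusted p 0.013 by limma). In these 3 Mmps the lowest P14 array lay above the highest P28 array. Timp2 read 2046, 1588 and 1478 against 754, 619 and 622 (-1.33, SE 0.27, adjusted p 0.00061 by limma), so the inhibitor fell together with Mmp2. Adamts5 read 298, 264 and 153 against 93.8, 48.1 and 68 (-1.55, SE 0.42, adjusted p 0.0067 by limma). Adamts3 read 484, 378 and 299 against 107, 125 and 136 (-1.52, SE 0.43, adjusted p 0.0082 by limma). None of the 6 genes had overlapping arrays. The call of Mmp2 ended without P14 replicate 1 (-1.09, adjusted p 0.063 by limma) and with array weights. That of Adamts5 ended without the lens-rich arrays (-1.26, adjusted p 0.13 by limma) and with an offset of 1. That of Adamts3 ended with the mean of its 16 probe sets (-0.61).

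**Figure D3:**
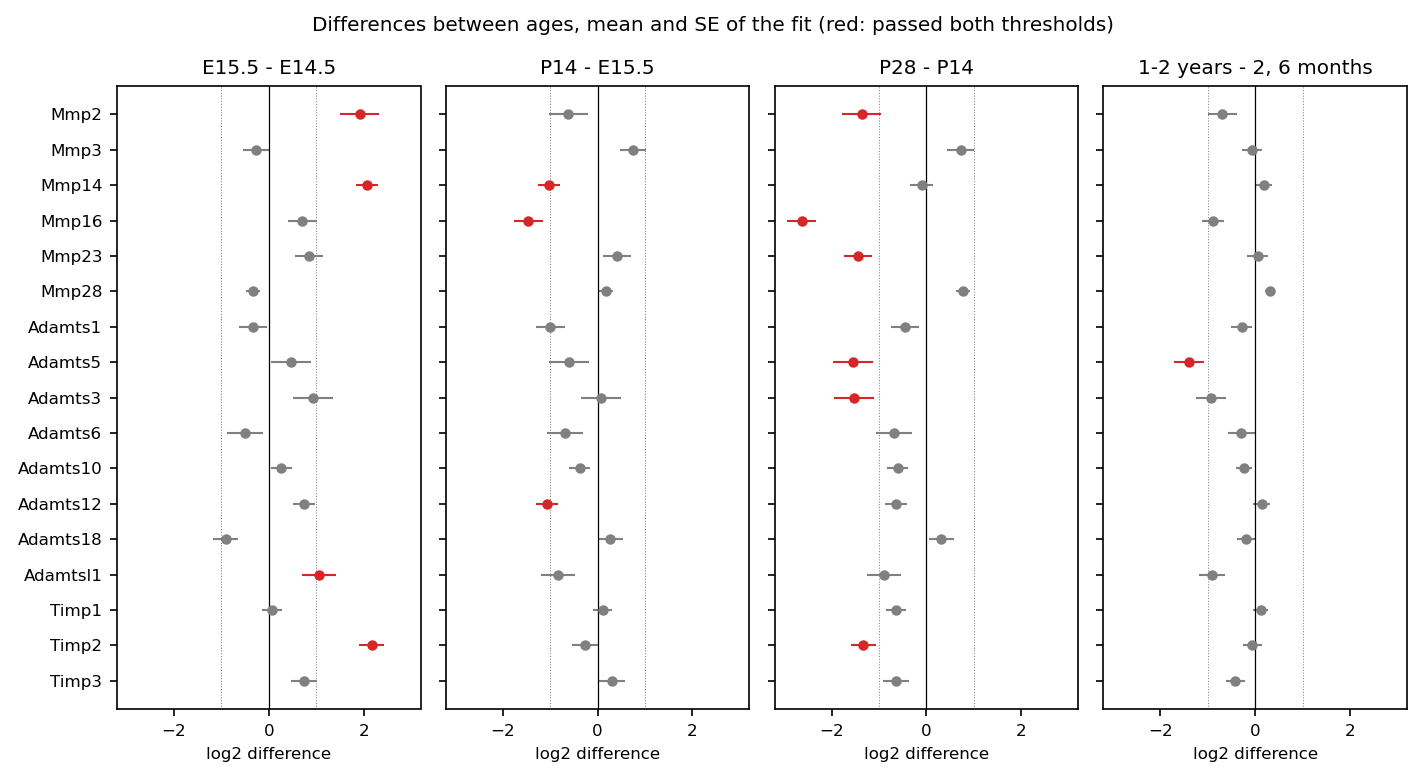
Points give the log2 difference of the 17 genes that changed over the 12 ages in 4 comparisons, bars the SE of the fit, red the genes past both thresholds, and dotted lines a difference of 1 in either direction. Timp2, Mmp14 and Mmp2 lie between 1.92 and 2.17 at E15.5 against E14.5, and Mmp16 lies at -2.63 at P28 against P14.

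Mmp14 did not pass at this step, with readings of 1288, 885 and 1006 at P14 and 939, 943 and 1046 at P28. Timp3 did not pass either, with 1354, 1252 and 1111 against 1022, 626 and 774, although these arrays did not overlap. Mmp28 was the family member that read higher at every later age than at E15.5 to P14: its arrays there lay between 156 and 219, and those of P28 to 2 years between 221 and 453. Its E14.5 mean, 7.85 on the log2 scale, lay between 7.70 at P14 and 8.02 at 6 months, the lowest later mean. At P28 against P14 it differed by 0.77, under the threshold of 1. For Mmp28 too, age and the split of the arrays cannot be told apart. The layer arrays, whose medians were higher, read 467 in epithelium and 290.2 in stroma. As a percentile within its array it stood at 67.5 in epithelium and on average at 60.4 in whole cornea of P28.

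Keratocyte and endothelial genes moved with the step from P14 to P28. The 7 keratocyte genes summed to 28983 to 39529.7 at P14 and 16662 to 19347 at P28, and 5 measured corneal endothelial genes of 6 listed summed to 3477 to 6579 and 1282 to 1786. The 6 corneal epithelial genes went the other way, from 36071 to 47046 at P14 to 53633 to 58041 at P28. At P28, 2 of the 5 endothelial genes lay below the median of each array. The part of the 3 lists in the fall of the 6 genes was not tested.

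At the step from P28 to 2 months, 3 genes rose and 1 fell (0.615% of all genes rose and 1.5% fell), and the same 3 fell again by 6 months, when 1.04% of all genes fell and 0.215% rose. They were the inhibitor Timp3 and the proteases Adamts1 and Adamts5, which both cut versican and aggrecan. Adamts1 and Adamts5 are neighbours on chromosome 16, with 0 protein-coding genes between them.

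Timp3 read 1022, 626 and 774 at P28, 1769, 2256 and 2677 at 2 months, and 931 and 952 at 6 months. It rose by 1.46 (SE 0.27, adjusted p 0.0012) and then fell by 1.21 (SE 0.31, adjusted p 0.033 by limma). Each array of 2 months lay above every other array of P28 to 2 years. Adamts1 read 273, 162 and 143, then 733, 478 and 411, then 232 and 167. It rose by 1.43 (SE 0.30, adjusted p 0.0023) and fell by 1.34 (SE 0.33, adjusted p 0.03 by limma). At 1 year it read 389 and 400.1, and on 2 years replicate 2 it read 438, inside the range of 2 months. Adamts5 read 93.8, 48.1 and 68, then 168, 265 and 150.2, then 41.8 and 38.6. It rose by 1.29 (SE 0.42, adjusted p 0.03) and fell by 1.87 (SE 0.47, adjusted p 0.033 by limma).

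The rise of Timp3 passed whichever array was left out. The rise of Adamts1 had an adjusted p of 0.053 without the lens-rich arrays, which include 2 months replicate 1 and P28 replicate 2. That of Adamts5 did not pass without P28 replicate 2, P28 replicate 3 or 2 months replicate 2, with differences from 1.06 to 1.29 and adjusted p up to 0.14. Nor did it pass with an offset of 1 or 64, quantile normalization, 2 months replicates 2 and 3 averaged, or without the lens-rich arrays. The later falls lost their calls in several fits with fewer arrays, and 2 of them with other processing. With either of the 6 months arrays left out none of the 3 passed, nor without 2 months replicate 2 or with 2 months replicates 2 and 3 averaged, with adjusted p between 0.062 and 0.23 over these fits. Timp3 and Adamts5 also did not pass without 2 months replicate 3, and Adamts1 without 2 months replicate 1. In the fits without 1 array that lost the call, the difference was -1.07 to -1.23 for Timp3, -1.64 to -2.02 for Adamts5 and -1.11 to -1.56 for Adamts1. Without the lens-rich arrays, which left 6 months with replicate 1, it was -0.89 for Adamts1, -1.90 for Adamts5 and -1.38 for Timp3. With quantile normalization Timp3 passed, while Adamts1 and Adamts5 did not (adjusted p 0.066 and 0.098 by limma). Adamts5 did not pass with an offset of 1 either.

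The corneal endothelial genes ran alongside. Their sum was 1282 to 1786 at P28, 3673 to 5250.1 at 2 months, 948 to 1526 at 6 months, 2079 to 3470 at 1 year, 500.2 and 571 at 18 months and 602 and 1767 at 2 years. The keratocyte genes summed to 16662 to 19347 at P28 and 16702 to 21695 at 2 months, and to 4975 and 8577 at 6 months. Retina genes, 9 measured of 11 listed, summed to 1696 to 2891 at P28, 2147 to 9911 at 2 months, and 5961 and 27751 at 6 months. At 18 months 5 of the 5 endothelial genes lay below the median of each array. The part of any of these lists in the changes of Timp3, Adamts1 and Adamts5 was not tested.

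**Figure D4:**
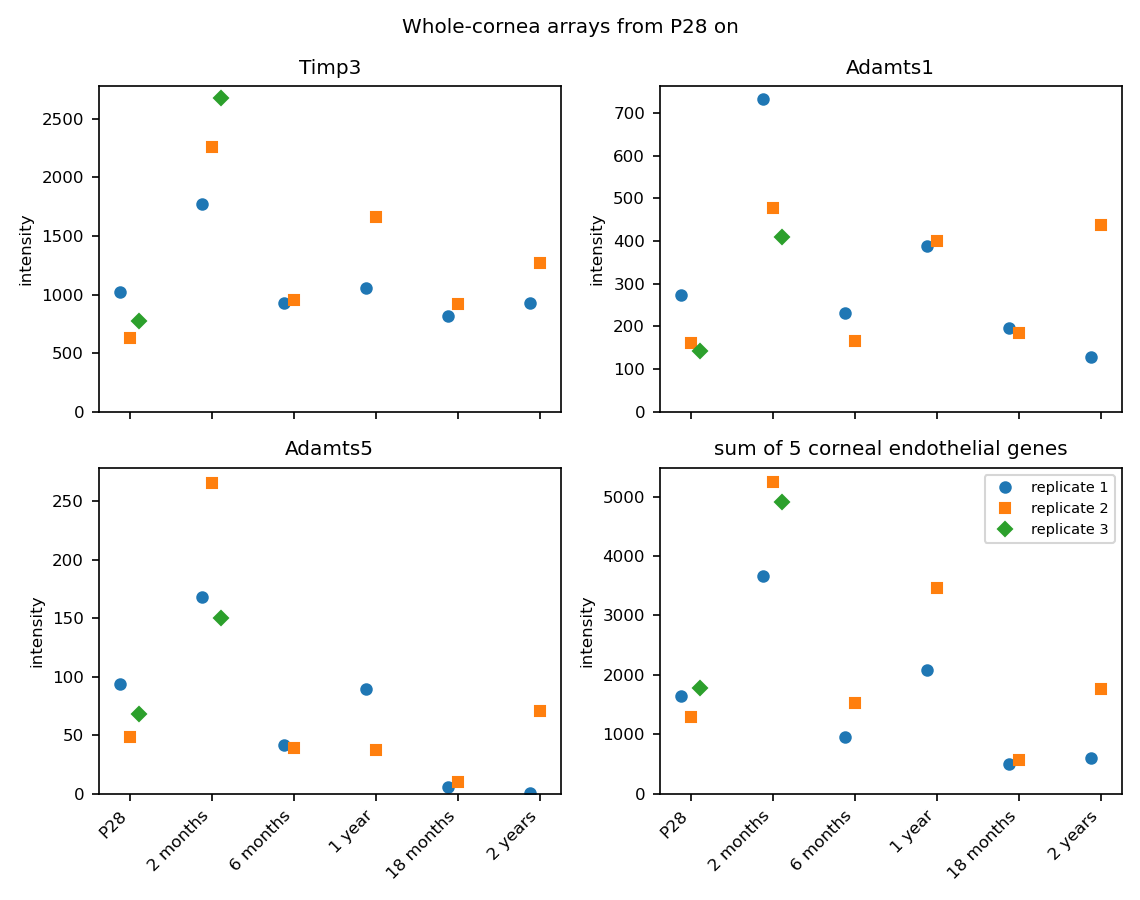
Intensity of Timp3, Adamts1 and Adamts5, and the sum of 5 corneal endothelial genes, on each whole-cornea array from P28 to 2 years, on linear axes that start at 0 with 1 symbol per replicate number. The 3 arrays of 2 months lie at 1769 to 2677 for Timp3 and at 3673 to 5250.1 for the endothelial genes, and the arrays of 18 months are among the lowest for Adamts5 (5.59 and 10).

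Mmp3, a stromelysin that cuts proteoglycans, fibronectin and basement membrane proteins, fell between P28 and 2 months. It read 431, 469.9 and 174 at P28 and 103, 158 and 172 at 2 months, a difference of -1.13 (SE 0.28, adjusted p 0.0067 by limma). Replicates 1 and 2 of P28 were the highest of the 32 arrays, while replicate 3 lay barely above the 2 months arrays. Without P28 replicate 1, P28 replicate 2 or 2 months replicate 1 the difference was between -0.95 and -0.89 and did not pass, and without the lens-rich arrays it was -0.69 (adjusted p 0.12). On the same 3 arrays of P28, 13 measured leukocyte genes of 14 listed summed to 7968, 5785 and 2697, against 2726 to 4218 at 2 months. At P28, 8 of the 13 lay below the median of each array. The means of S100a9 (1739 at P28 and 212 at 2 months) and Itgam (1486 and 729) were higher at P28. Those of Ptprc (139 and 170), Csf1r (149 and 167), Adgre1 (105 and 111), Tyrobp (263 and 304) and Fcer1g (179 and 230) were lower. The 4 conjunctiva and limbus genes summed to 10096, 8165 and 4743, against 3013 to 4240.0 at 2 months. The part of either list in the level of Mmp3 was not tested.

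With ageing, taken as 1 year, 18 months and 2 years against 2 and 6 months, 1 gene of the family passed, Adamts5, which fell, when 0.554% of all genes fell and 0.123% rose. Adamts5 read 89.3 and 37.1 at 1 year, 5.59 and 10 at 18 months, and 0.333 and 70.7 at 2 years, against the values from 38.6 to 265 at 2 and 6 months. The difference was -1.40 (SE 0.32, adjusted p 0.014 by limma), and the arrays of both sides overlapped. The call ended without 6 months replicate 1 (the retina-rich array) or 1 year replicate 2, with differences of -1.38 and -1.24, and without the lens-rich arrays (-1.46, adjusted p 0.069). The 2 arrays of 2 years lay far apart. The keratocyte sums differed among these ages too, with 12133 and 16997 at 1 year, 4817 and 6694 at 18 months, and 3239 and 11063 at 2 years, and their part in the fall of Adamts5 was not tested. The median difference of the 31 genes was 0.00, against 0.01 for all genes.

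Against 2 months alone, 4 genes were lower at 2 years (1.87% of all genes fell): Adamts5 by -2.45 (adjusted p 0.0021), Adamtsl1 by -1.45 (adjusted p 0.027), Adamts1 by -1.08 (adjusted p 0.043) and Timp3 by -1.01 (adjusted p 0.039, all by limma). For Adamts1 the arrays overlapped. This comparison shares the arrays of 2 months with the steps above, where Timp3, Adamts1 and Adamts5 were at their highest of the later ages. Adamtsl1 was also lower at 18 months (59.9 and 39.3) than at 1 year (199 and 219), a difference of -1.79 (SE 0.44, adjusted p 0.044 by limma) at a step where 0.762% of all genes fell. The keratocyte sum went from 12133 and 16997 to 4817 and 6694 at that step, and its part in the difference was not tested. That call was lost under 26 of 46 other settings, 20 of which left out 1 array, with adjusted p from 0.05 to 0.36 in those 20. From 6 months to 1 year and from 18 months to 2 years 0 of 31 genes passed by limma (0.208% and 0.446% of all genes did), with 1 and 3 at an unadjusted p under 0.05.

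Genes outside the family were counted from a list of other inhibitors, activators, inducers and clearance receptors. The list also held Pcolce and Pcolce2, which act on procollagen processing. Of 23 listed, 21 had a probe set and 17 were tested. Between E14.5 and E15.5, 5 rose and 0 fell (7.35% and 3.1% of all genes did): A2m, a broad protease trap, by 5.86, Thbs2, which binds Mmp2 for uptake, by 4.21, Pcolce, an enhancer of procollagen processing, by 2.69, Lrp1, the receptor that clears many proteases, by 1.94, and Thbs1 by 1.50. Between E15.5 and P14 Reck, a membrane-anchored Mmp inhibitor, fell by 1.08 on the log2 scale (adjusted p 0.0096 by limma), 1 of 17, when 1.98% of all genes fell. Between P14 and P28, Thbs2 (-2.27), Pcolce (-1.55) and Thbs1 (-1.15) fell and Pcolce2 rose by 2.13, when 3.5% of all genes fell and 4.15% rose. With ageing 0 of 17 passed by limma (0.554% of all genes fell and 0.123% rose), with 5 at an unadjusted p under 0.05.

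Of 15 related metalloprotease genes of the Adam and astacin families, 11 were tested. Between E14.5 and E15.5, 0 of them changed (7.35% of all genes rose and 3.1% fell), and 6 had an unadjusted p under 0.05 by limma. Adam28, a lymphocyte-associated Adam, rose by 1.47 from E15.5 to P14 and by 1.14 from P14 to P28, and was the 1 gene of the list to pass in either comparison. Of all genes, 3.21% rose and 1.98% fell from E15.5 to P14, and 4.15% rose and 3.5% fell from P14 to P28.

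Of 22 listed substrates, 17 were tested, and 10 rose and 0 fell between E14.5 and E15.5 (7.35% of all genes rose and 3.1% fell), with a list median of 1.89, among them Col1a1, a chain of type I collagen, by 3.76, and the proteoglycan gene Bgn by 3.36. From E15.5 to P14, Vcan, the versican cut by Adamts1 and Adamts5, fell by 2.76, Fbn2 by 2.41 and Col3a1 by 1.37, and Fmod rose by 1.69, when 1.98% of all genes fell and 3.21% rose. From P14 to P28, 7 fell and 0 rose (3.5% and 4.15% of all genes did), among them Fbn2 (-2.65), Col3a1 (-2.25) and Vcan (-1.65). Lum, Dcn, Col1a1, Col1a2 and Col5a1 of this list are also keratocyte genes in the list above, so the lists are not independent.

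In the separated layers, 29 genes of the family lay above the array's median on the epithelium or the stroma array. With 1 array per layer, taken at different ages, no test was made. None of the 29 differed by 4-fold (1.94% of all genes above the median did), 24 read higher in stroma and 5 in epithelium, which is 82.8% in stroma against 49.6% of all genes, and the median of epithelium minus stroma was -0.35 against 0.00. The largest difference was that of Mmp2, with 361 in epithelium and 1316 in stroma (-1.82). Timp2 read 343 and 969.7 (-1.46) and Adamts3 213 and 547 (-1.30). Mmp28 had the largest difference towards epithelium, with 467 and 290.2 (0.66).

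The labels of the layers were checked against markers. The 6 epithelial genes summed to 46789 on the epithelium array and 13293 on the stroma array, and the 7 keratocyte genes to 3770 and 23953, as the labels say. The stroma array also carried lens genes, with a sum of 103177 against 5863 in epithelium, and skeletal muscle genes, with 16204 against 3414, and the 5 endothelial genes read 5369 in stroma and 4390 in epithelium. Their part in the values of the family was not tested.

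Some values on the layer arrays lay outside those of whole cornea at the same age. Mmp13 read 211 in epithelium and 679 in stroma of P7 (-1.62), whereas the highest of the 32 whole-cornea arrays read 125 and those of P7 read 98.9, 102 and 111. As a percentile within its array, which a shift common to all probe sets does not change, Mmp13 stood at 80.6 in stroma and on average at 16.1 in whole cornea of P7. Mmp16 read 469 in the epithelium of P28 against 76.8 to 101 in whole cornea of P28, percentiles of 67.6 and 15.5. Adamts5 read 276 against 48.1 to 93.8, percentiles of 36.3 and 9.99. The 5 endothelial genes also summed higher on that epithelium array, to 4390 against 1282 to 1786 in whole cornea of P28. The 7 keratocyte genes went the other way, with 3770 against 16662 to 19347. The part of other cell types in the readings of Mmp16 and Adamts5 was not tested.

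**Figure D5:**
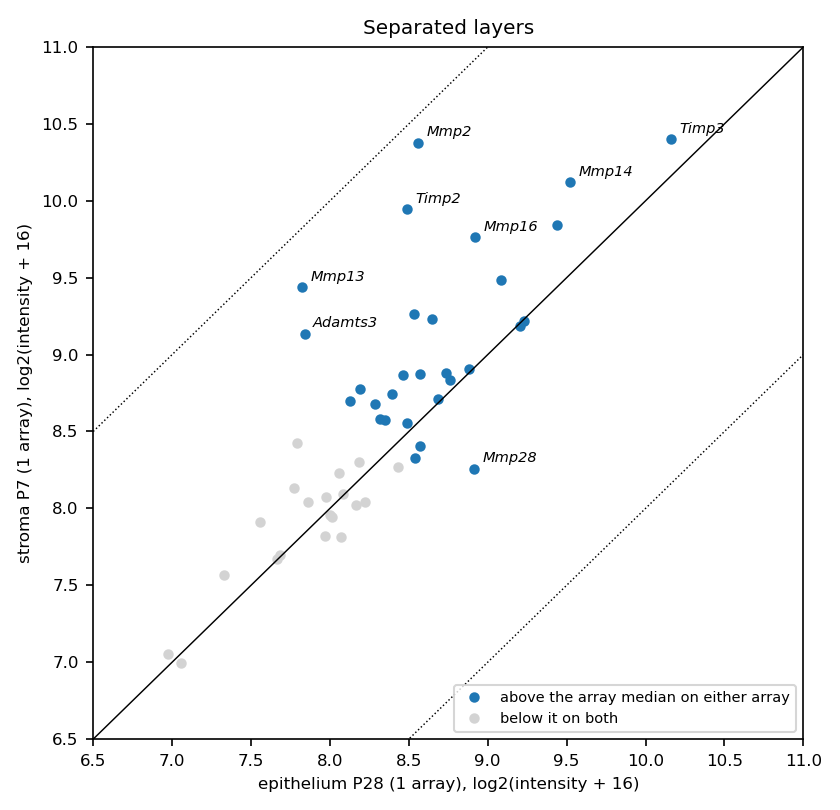
Each point is 1 of the 49 genes, with log2(intensity + 16) on the epithelium array of P28 along the horizontal axis and on the stroma array of P7 along the vertical axis. The solid line marks equal values, dotted lines a 4-fold difference, and grey points lie below the array median on both arrays. No blue point lies outside the dotted lines, and Mmp2, Mmp13, Timp2 and Adamts3 lie farthest to the side of stroma.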

How the data were processed

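The deposited values are linear intensities, 1 for each probe set on each array, and were used as given. The submitters' processing notes name Affymetrix Expression Console (version 1.1) and PLIER as the authors' tools, while a genome build was not given in the sources used here. Probe sets with 1 symbol in the platform annotation stood for genes. A value of 16 was added before taking log2, and arrays were not normalized further. limma 3.58.1 (R 4.3.3) fitted 1 mean per age to all 32 arrays of whole cornea, with 20 residual degrees of freedom and a prior of 4.1, and was tested on simulated data. Tests were two-sided, and Benjamini-Hochberg adjustment ran over the 12998 genes of a comparison. Genes passed at an adjusted p under 0.05 and an absolute log2 difference of at least 1. Any family member may be named, with every array's value for those that passed, and list members after their counts. The members, lists and comparisons were chosen with earlier results of these data known. The number of arrays limits the precision. Identifiers 1A and 1B on replicates 3 and 2 of 2 months are not explained by the labels. For the layers the sample labels (P28 and P7) were followed, although the series' design text names a single age.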

Additional observations from a re-analysis of the deposited data

How the results depend on the processing

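Of the 24 calls of a gene in a comparison, over 12 genes, 7 passed under each of the 46 other settings tried, and none changed sign. The 7 were Timp2 and Mmp14 at E15.5 against E14.5, Mmp16 at P14 against E15.5, Timp2, Mmp16 and Mmp23 at P28 against P14, and Timp3 at 2 months against P28. With 1 array left out at a time, the count of genes that changed was 17 to 18 over the 12 ages, 9 to 11 over E14.5 to P14, 7 to 9 over P28 to 2 years, 3 to 6 at E15.5 against E14.5, 1 to 4 at P14 against E15.5, 5 to 7 at P28 against P14, 0 to 3 with ageing, and 5 to 13 for the sum over the other 9 steps between neighbouring ages, which was 10 with all arrays. That sum was 5 with quantile normalization, 5 with 2 months replicates 2 and 3 averaged, 20 with array weights and 6 without the muscle-rich and retina-rich arrays. An offset of 64 left 1 gene at P14 against E15.5 and 0 with ageing, and an offset of 1 gave 3 with ageing. The ageing count was 4 for 2 years against 2 months and 0 without the muscle-rich and retina-rich arrays. Without the lens-rich arrays 7 genes changed over E14.5 to P14 and 2 at E15.5 against E14.5. Chosen after seeing the data, that fit left 3 of 5 genes at E17.5 against E14.5, and leaving out E15.5 replicate 1 along with the muscle-rich and retina-rich arrays left 4 genes there, 4 at E15.5 against E14.5, 2 at P14 against E15.5 and 0 at P3 against E17.5. With no threshold on the difference the counts were 11 at E15.5 against E14.5, 10 at P28 against P14, 2 with ageing and 16 over the other steps. Between the epithelium array and whole cornea of P28, 1 of the 22 genes of the family above the median differed by 4-fold, as did 78 of all genes. The causes were not tested, other than that fewer arrays or another threshold enter by construction.

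With the replicate number as a block the counts were 17, 11, 9, 4, 3, 6, 1 and 11, in the order above. Deviations of arrays with the same number correlated between -0.43 and 0.40, with a median of -0.01, and 11 of 32 arrays correlated best with an array of their own number, so the numbers show no pairing. With the mean of all probe sets of a gene, Adamts3 did not pass over the 12 ages and Adamts9 did. Quantile normalization moved the median of all genes by -0.11 at P28 against P14, and median centring by 0.12 at 6 months against 2 months.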

Other observations

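Adamts9, a protease that cuts versican and aggrecan, was represented by the flattest of its 6 probe sets, whose age means spanned 0.42 log2 units. Each of the other 5 had its highest age mean at E17.5, and their age means spanned 1.50 to 3.47 log2 units. These probe sets were looked at after their values were seen.

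Adamts18, a protease whose gene is known from inherited malformations of the human eye, changed over the 12 ages and over E14.5 to P14. It read 798 on E14.5 replicate 2, a lens-rich array, against 272 and 244 on the other arrays of that age, and between 97 and 155 at P7. Adamts6 also had its highest age mean at E14.5, with 325, 449 and 249, and read 21.8 and 55.6 at 18 months. Its log2 mean was 8.44 at E14.5 and 8.42 at E17.5, and the arrays of these ages overlapped. Over E14.5 to P14 its adjusted p was 0.047 by the moderated F-test.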
